A study of Mus musculus with 12 samples.

Results

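Genes that mark alveolar type 1 (AT1) cells were examined in RNA of sorted alveolar type 2 (AT2) cells. The members were fixed by name: Ager, Hopx, Pdpn, Aqp5, Cav1, Emp2, Clic5, Akap5, Rtkn2 and Vegfa, 10 of the 21878 genes with values, and all 10 were found and passed the filter on low values. AT1 cells are the flat cells that cover most of the alveolar surface and pass gas to the capillaries, while AT2 cells make surfactant and can divide and give rise to AT1 cells. On the way from AT2 to AT1 a cell loses surfactant genes, can pass through a keratin-rich transitional state, and gains genes for a thin membrane, caveolae, water transport and contact with the vessel wall. Gain of AT1 genes in sorted AT2 cells is therefore used in the field as a sign of differentiation.

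RNA was sequenced in 4 groups of 3 samples from C57BL/6 mice, all with floxed Atg5. AT2-PBS and AT2-BLM came from Atg5 f/f mice, which the sample labels call wild type, given PBS or bleomycin (BLM, which damages alveolar epithelium and is widely used to model lung injury) at 2 U/kg into the trachea. Atg5-/- AT2-PBS and Atg5-/- AT2-BLM came from Nkx2.1Cre;Atg5 f/f mice, in which Cre under Nkx2.1 acts throughout the lung epithelium from development on and removes Atg5, a gene needed to form autophagosomes. Mice in BLM experiments were 8 to 12 weeks old and described as male, and cells were taken on day 14, a day not named for Atg5-/- AT2-PBS. The sort kept EpCAM+ cells that were negative for CD31, CD34, CD45, CD24 and Sca-1. Neither the labels nor the methods say whether a sample was 1 mouse or a pool, so p-values measure the spread between these samples. A level is given as FPKM (fragments scaled by transcript length and by mapped fragments), which is scaled by length and can be compared between genes. The number of fragments behind a value is unknown. A gene is said to be called where it has a fold change of 1.4 or more on log2(FPKM + 1) and p under 0.05 before adjustment, by limma in a single fit to all 12 samples over 10675 genes. A fold change is given as its log2, and an adjusted p is a Benjamini-Hochberg value over those genes.

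Several libraries stood apart. Sftpc, the surfactant gene that defines AT2 cells, was listed at 0 in every sample but AT2-BLM replicate 2 (112600 FPKM), and a listed 0 in such a file can be a failed estimate. Sftpa1, another surfactant gene, was at 4967 to 13570 FPKM in the 12 samples. Atg5 itself was not called between genotypes (log2 fold change -0.14 with PBS and -0.26 with BLM, standard error 0.23 each). FPKM over a whole gene need not fall when floxed exons alone are removed, so this does not check the genotype, which is taken from the labels. Epcam (102 to 180 FPKM) and Cdh1 (82.1 to 168 FPKM), which mark epithelium, were present in every sample. Epcam was at 102 to 110 FPKM in Atg5-/- AT2-PBS and at 130 to 180 FPKM in AT2-PBS, and was called lower with Atg5 loss and PBS. Its log2 fold change there was -0.49 (adjusted p of 0.067 from limma), and that of Cdh1 was -0.39, not called. The 3 Atg5-/- AT2-PBS libraries were above all others in RNA of leukocytes, fibroblasts and club cells, although CD45+ cells were gated out. Ptprc, which encodes CD45, was at 7.54 to 8.47 FPKM there and at 2.64 FPKM or less elsewhere, and Col1a2, a fibroblast collagen, at 10.7 to 19.6 against 7.80 FPKM or less. Summed leukocyte markers were at 289 to 317 FPKM there and at 7.75 to 81.2 FPKM elsewhere, summed fibroblast markers at 95.0 to 103.6 against 3.57 to 39.7 FPKM, and club cell markers at 23390 to 84980 against 873 to 11750 FPKM. Summed liver and islet genes were at 1812 to 5030 FPKM in Atg5-/- AT2-PBS, at 3001 FPKM in AT2-PBS replicate 1 and at 3.34 to 793 FPKM in the rest. The part of this RNA in the members' values was not tested. Ddx3y, on the Y chromosome, was at 4.22 to 5.98 FPKM in 5 libraries (AT2-PBS replicates 2 and 3, AT2-BLM replicate 3, Atg5-/- AT2-BLM replicates 2 and 3) and at 0.0309 to 0.173 FPKM in the other 7, among them all Atg5-/- AT2-PBS libraries. Some results on the members are also given with single libraries left out, or with Y-linked expression as a covariate, a choice made after seeing the data. The 3 Atg5-/- AT2-PBS libraries are a whole group and were not left out together. Counts called in the other gene lists are given for all samples only.

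The 10 genes lay at very different levels in the sorted cells. Ager, Aqp5 and Emp2 were at 97.3 FPKM or more in each of the 12 samples, Hopx, Pdpn, Cav1, Clic5 and Vegfa were between 1.00 and 62.5 FPKM, and Akap5 and Rtkn2 between 0.21 and 8.28 FPKM. One library led them: 9 of the 10 members had their highest value of the 12 samples in AT2-BLM replicate 3, Vegfa being the exception. In that library summed transitional alveolar cell genes were also highest (4240 FPKM, against 2821 to 3098 FPKM in the other AT2-BLM samples) and Sftpa1 was lowest. Summed AT2 markers were at 25510 FPKM there and at 25390 FPKM in AT2-PBS replicate 1. Among AT2-BLM samples replicate 3 also had the highest summed fibroblast (39.7 FPKM), mesothelial (61.4), lymphatic endothelial (4.03), club cell (4965) and basal cell (7.40) markers. Its leukocyte markers were the lowest of the 3 (29.6 FPKM). The part of these cells in the members' values was not tested. Replicate 3 is also the AT2-BLM library with Ddx3y.

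**Figure D1:**
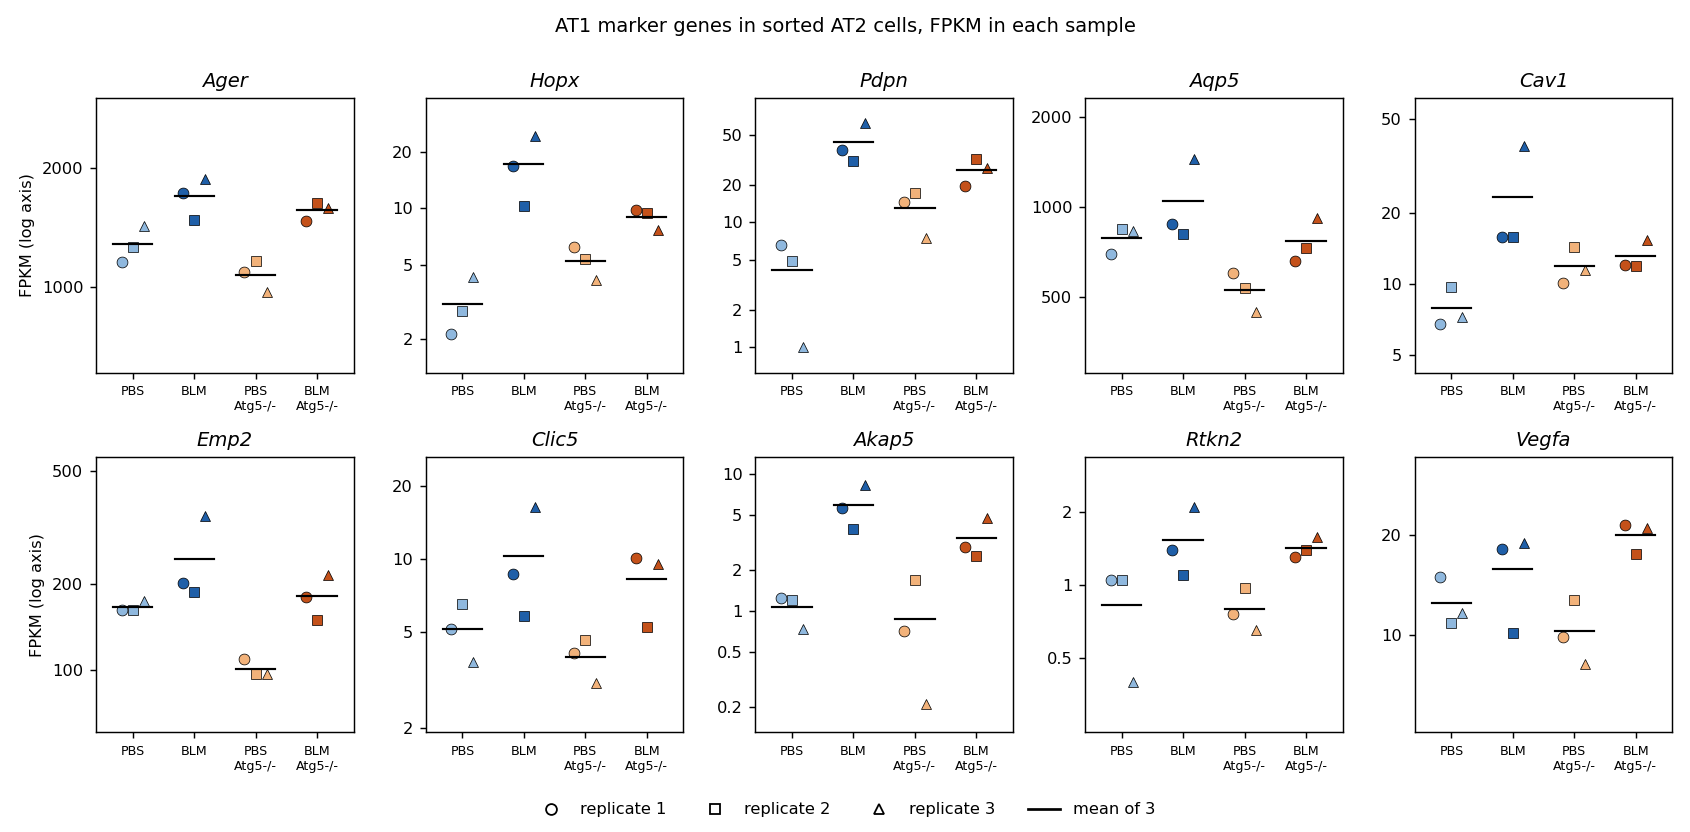
FPKM of the 10 AT1 marker genes (log axis) in each sample of the 4 groups, with circles, squares and triangles for replicates 1, 2 and 3 and a bar at the mean of 3. Hopx, Pdpn, Cav1 and Akap5 sit higher in all AT2-BLM than in all AT2-PBS samples, and the triangle of AT2-BLM is the highest point for every gene but Vegfa.

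Hopx encodes an atypical homeodomain protein that controls transcription without binding DNA itself and marks AT1 cells from early in their maturation. It was at 2.13, 2.83 and 4.33 FPKM in AT2-PBS and at 16.8, 10.3 and 24.2 FPKM in AT2-BLM. The Atg5-/- cells had 6.21, 5.38 and 4.17 FPKM with PBS and 9.73, 9.43 and 7.67 FPKM with BLM. The order of the means was AT2-PBS (3.10 ± 1.12, SD, n = 3), Atg5-/- AT2-PBS (5.25 ± 1.03), Atg5-/- AT2-BLM (8.94 ± 1.11) and AT2-BLM (17.1 ± 6.97), and the ranges of neighbours in this order overlapped only between the PBS groups. Hopx lies on chromosome 5 from 77515468 to 77544186 of mm9 (minus strand), where Gm15830 and a small nucleolar RNA lie on the opposite strand.

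Pdpn encodes podoplanin, a mucin-type membrane glycoprotein on the apical face of AT1 cells, also found on lymphatic endothelium, mesothelium and some fibroblasts. AT2-PBS samples had 6.57, 4.95 and 1.00 FPKM and AT2-BLM samples 37.9, 31.2 and 62.5 FPKM. Atg5-/- samples had 14.6, 17.2 and 7.57 FPKM with PBS and 19.5, 32.4 and 27.5 FPKM with BLM. The means ran from 4.18 ± 2.86 FPKM in AT2-PBS through 13.1 ± 4.98 in Atg5-/- AT2-PBS and 26.5 ± 6.53 in Atg5-/- AT2-BLM to 43.9 ± 16.4 in AT2-BLM. Neighbouring groups did not overlap except the last pair. Pdpn lies on chromosome 4 from 142857334 to 142889467 (minus strand) with no overlapping gene in the annotation. The defining genes Prox1 of lymphatic vessels and Wt1 of mesothelium were at 0.145 and 0.517 FPKM or less in every sample. Summed lymphatic markers were at 0.501 to 1.88 FPKM in AT2-PBS, 0.620 to 4.03 in AT2-BLM, 10.1 to 42.2 in Atg5-/- AT2-PBS and 1.83 to 6.47 in Atg5-/- AT2-BLM. Summed mesothelial markers were at 1.57 to 6.45, 1.71 to 61.4, 3.81 to 19.2 and 0.938 to 1.71 FPKM in the same order, the highest sum coming from Msln (56.0 FPKM) in AT2-BLM replicate 3, and with BLM in Atg5 f/f cells 1 of 2 mesothelial markers tested was called higher.

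Cav1 encodes caveolin-1, the coat protein of the flask-shaped caveolae that crowd the AT1 membrane and that are also dense in endothelium. It was at 6.71, 9.73 and 7.23 FPKM in AT2-PBS and at 15.8, 15.8 and 38.5 FPKM in AT2-BLM, with replicate 3 far above the other two. Atg5-/- values were 10.1, 14.3 and 11.5 FPKM with PBS and 12.1, 11.8 and 15.3 FPKM with BLM, and these ranges overlapped. Cdh5, Sox17 and Kdr, which mark endothelial cells, were at 0.828 FPKM or less in every sample, while Pecam1 was at 6.12 to 6.49 FPKM in AT2-BLM and at 0.0853 to 5.82 FPKM in AT2-PBS. Of 4 endothelial markers tested 3 were called higher with BLM in Atg5 f/f cells, Ramp2 (2.19), Pecam1 (1.76) and Egfl7 (0.51), and the list summed to 10.9 to 33.9 FPKM in AT2-PBS, 35.0 to 41.5 in AT2-BLM, 17.6 to 62.4 in Atg5-/- AT2-PBS and 43.1 to 46.3 in Atg5-/- AT2-BLM. Their part in the level of Cav1 was not tested. Cav1 lies on chromosome 6 from 17256335 to 17291452 (plus strand), with Gm15581 on the opposite strand.

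The upstream windows of Pdpn, Hopx and Cav1 are shown because the BLM difference of these 3 genes differed between genotypes, as described further on. They are the 250 bases before each transcription start in RefSeq (GRCm38.p6, 5′ to 3′ on the gene's strand), at chr4:143299565-143299814 (minus strand) for Pdpn, chr5:77115124-77115373 and chr5:77095268-77095517 (minus) for Hopx, and chr6:17306085-17306334 and chr6:17307390-17307639 (plus) for Cav1. Capitals mark GGAATG (core letters bound by TEAD, the partner of YAP and TAZ), CTCAAG (core letters bound by NKX2-1) and ACGTG (core letters bound by hypoxia-inducible factors), each on either strand, where CACGTG is 2 overlapping matches of the last and is also an E-box.
Pdpn: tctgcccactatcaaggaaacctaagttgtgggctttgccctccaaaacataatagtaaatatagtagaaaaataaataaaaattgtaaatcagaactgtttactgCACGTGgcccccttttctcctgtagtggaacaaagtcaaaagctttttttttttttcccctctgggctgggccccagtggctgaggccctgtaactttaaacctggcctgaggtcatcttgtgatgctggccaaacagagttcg
Hopx, first start: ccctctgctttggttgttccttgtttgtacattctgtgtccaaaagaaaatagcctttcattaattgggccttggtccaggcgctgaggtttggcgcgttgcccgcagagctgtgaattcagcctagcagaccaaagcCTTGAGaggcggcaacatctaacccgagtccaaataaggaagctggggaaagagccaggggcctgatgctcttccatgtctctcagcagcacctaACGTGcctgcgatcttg
Hopx, other start: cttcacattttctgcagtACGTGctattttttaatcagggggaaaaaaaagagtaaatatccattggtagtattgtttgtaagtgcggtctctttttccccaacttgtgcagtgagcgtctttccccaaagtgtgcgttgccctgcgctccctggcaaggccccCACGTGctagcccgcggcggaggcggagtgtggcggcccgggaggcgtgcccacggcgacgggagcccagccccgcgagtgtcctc
Cav1, first start: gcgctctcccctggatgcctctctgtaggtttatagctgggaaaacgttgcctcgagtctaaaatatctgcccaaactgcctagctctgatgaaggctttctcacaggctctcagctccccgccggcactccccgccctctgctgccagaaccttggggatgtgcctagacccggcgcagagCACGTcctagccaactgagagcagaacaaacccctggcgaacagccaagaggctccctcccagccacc
Cav1, other start: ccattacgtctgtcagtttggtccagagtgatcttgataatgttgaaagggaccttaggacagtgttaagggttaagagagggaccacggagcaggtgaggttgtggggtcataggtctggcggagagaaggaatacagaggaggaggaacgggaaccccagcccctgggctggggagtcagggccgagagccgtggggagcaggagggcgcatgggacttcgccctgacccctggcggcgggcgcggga
Of the 10 members, 9 have windows in the table, 12 in all, and Rtkn2 has none. ACGTG stood in 6 of the 12 windows, from Pdpn, both starts of Hopx, the first start of Cav1, Aqp5 and 1 start of Vegfa, against 16.6% of the 32851 windows of all genes. CTCAAG stood in 1 of the 12, the first start of Hopx, against 13.3%, and GGAATG in 0 of the 12, against 12.6%. These matches are letters in the window and do not show binding.

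Aqp5, Emp2 and Clic5 complete the membrane genes. Aqp5 encodes a water channel of the apical AT1 membrane and was at 695, 847 and 831 FPKM in AT2-PBS and at 879, 813 and 1453 FPKM in AT2-BLM. Atg5-/- AT2-PBS samples had 600, 538 and 448 FPKM and Atg5-/- AT2-BLM samples 659, 728 and 922 FPKM. The Atg5 f/f groups overlapped with each other, and Atg5-/- AT2-PBS lay below all other samples.
Emp2 encodes a tetraspan membrane protein linked to caveolae and integrins and was at 163, 163 and 175 FPKM in AT2-PBS and at 202, 189 and 348 FPKM in AT2-BLM. In Atg5-/- cells it was at 110, 97.3 and 97.5 FPKM with PBS and at 181, 151 and 217 FPKM with BLM. Here too Atg5-/- AT2-PBS was the lowest group, with no overlap with any other.
Clic5 encodes a chloride intracellular channel protein tied to the cortical cytoskeleton and was at 5.13, 6.51 and 3.76 FPKM in AT2-PBS and at 8.66, 5.80 and 16.4 FPKM in AT2-BLM. Atg5-/- AT2-PBS samples had 4.10, 4.64 and 3.09 FPKM and Atg5-/- AT2-BLM samples 10.1, 5.24 and 9.53 FPKM. The BLM and PBS ranges met in Atg5 f/f cells and were apart in Atg5-/- cells. On mm9 Aqp5 lies on chromosome 15 from 99421280 to 99425260 (plus), Emp2 on chromosome 16 from 10281842 to 10314061 (minus) and Clic5 on chromosome 17 from 44325521 to 44417117 (plus).

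Akap5 and Rtkn2 act inside the cell. Akap5 encodes an anchoring protein that holds protein kinase A and calcineurin at the membrane, and was at 1.25, 1.21 and 0.74 FPKM in AT2-PBS and at 5.64, 3.99 and 8.28 FPKM in AT2-BLM. In Atg5-/- cells it was at 0.719, 1.69 and 0.21 FPKM with PBS and at 2.95, 2.52 and 4.78 FPKM with BLM. Each BLM sample was above each PBS sample in both genotypes. Rtkn2 encodes a protein related to rhotekin and stayed low throughout, at 1.05, 1.05 and 0.399 FPKM in AT2-PBS and 1.39, 1.10 and 2.10 FPKM in AT2-BLM. Atg5-/- AT2-PBS samples had 0.763, 0.977 and 0.655 FPKM and Atg5-/- AT2-BLM samples 1.31, 1.39 and 1.58 FPKM, so BLM and PBS did not overlap in either genotype, at levels where a fold change on this scale is understated. Akap5 lies on chromosome 12 from 77425878 to 77435140 (plus) and Rtkn2 on chromosome 10 from 67442318 to 67522488 (plus), both with a noncoding gene on the opposite strand.

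Ager and Vegfa belong to signalling between cells. Ager encodes the receptor RAGE, which binds S100 proteins and HMGB1 and is a major membrane protein of AT1 cells. Its level was the highest of the members in every sample, at 1156, 1267 and 1428 FPKM in AT2-PBS and at 1730, 1482 and 1882 FPKM in AT2-BLM. In Atg5-/- cells it was at 1090, 1163 and 974 FPKM with PBS and at 1474, 1636 and 1590 FPKM with BLM. BLM samples were above PBS samples in both genotypes by less than the fold seen for Hopx or Pdpn in Atg5 f/f cells.
Vegfa encodes the endothelial growth factor that alveolar epithelium sends to capillaries, and was at 14.9, 10.9 and 11.6 FPKM in AT2-PBS and at 18.1, 10.1 and 18.8 FPKM in AT2-BLM. Atg5-/- AT2-PBS samples had 9.84, 12.7 and 8.14 FPKM and Atg5-/- AT2-BLM samples 21.4, 17.5 and 20.9 FPKM. The lowest AT2-BLM sample was below every AT2-PBS sample, whereas the Atg5-/- groups were apart. Ager lies on chromosome 17 from 34734807 to 34737879 (plus) and Vegfa on the same chromosome from 46153942 to 46169326 (minus).

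BLM against PBS in Atg5 f/f cells asks which AT1 genes differ in AT2 cells that survive injury. Hopx, Pdpn, Cav1 and Akap5 were higher with BLM by log2 fold changes of 2.10, 3.26, 1.34 and 1.72 (standard errors 0.28, 0.46, 0.30 and 0.31), with adjusted p of 0.00112, 0.00132, 0.0115 and 0.00496 from limma. Emp2 (0.50, standard error 0.21) and Clic5 (0.79, standard error 0.33) were also called higher, with adjusted p of 0.121 and 0.115 from limma. Thus 6 of 10 members were called higher and 0 lower, where 20.6% of all genes tested were called higher and 7.77% lower, and 4 members passed an adjusted p under 0.05, as did 17.4% of all genes. Ager (0.40, 95% interval 0.051 to 0.75) and Rtkn2 (0.47, interval 0.026 to 0.91) had unadjusted p of 0.0281 and 0.0395 from limma but fell short of the fold, and Aqp5 (0.36, interval -0.14 to 0.86) and Vegfa (0.28, interval -0.23 to 0.79) reached neither. The group ranges did not overlap for 7 members, Ager, Hopx, Pdpn, Cav1, Emp2, Akap5 and Rtkn2, against 40.2% of all genes.

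The median log2 fold change was 0.65 over the members and 0.17 over all genes, and 0.38 and 0.13 without AT2-BLM replicate 3. With quantile normalization, median-ratio scaling or scaling to Cdh1, the median of all genes was -0.015, 0.020 and -0.015 and that of the members 0.45, 0.49 and 0.47. Emp2 and Clic5 lost their call under each of these scalings and without AT2-BLM replicate 3, without which 4 members were called (Hopx, Pdpn, Cav1 and Akap5). Without AT2-BLM replicate 2, the sample with the lowest value of its group for 9 of the 10 members, 9 were called. With Y-linked expression as a covariate, Aqp5 and Rtkn2 were called higher besides the members called in the main fit. Calls of all genes ran from 2640 to 3179 with 1 sample left out, against 3031 with all samples. In a bulk sample a larger share of cells with AT1 genes and more AT1 RNA per cell cannot be told apart.

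BLM against PBS in Atg5-/- cells asks the same where autophagy is genetically impaired. Emp2 (0.83, standard error 0.21), Akap5 (1.28, standard error 0.31) and Vegfa (0.91, standard error 0.23) were higher with adjusted p of 0.0303, 0.0240 and 0.0297 from limma. Ager (0.54), Hopx (0.68), Pdpn (1.00), Aqp5 (0.54) and Clic5 (0.88) were called higher without passing the adjustment, at adjusted p between 0.0579 and 0.224 from limma. Cav1 (0.12, interval -0.52 to 0.77) and Rtkn2 (0.43, interval -0.0080 to 0.88) were not called. In all, 8 of 10 members were called higher and 0 lower, against 7.66% and 10.7% of all genes, and 3 passed the adjusted p, against 8.65% of all genes. Ranges did not overlap for 9 members, all but Cav1, against 24.9% of all genes.

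The median log2 fold change was 0.75 over the members and 0.063 over all genes. The PBS side of this comparison holds the 3 libraries with the leukocyte, fibroblast and club cell RNA described above, whose part in these values was not tested. The number of members called was 3 with Y-linked expression as a covariate (Emp2, Akap5 and Vegfa), 4 with median-ratio scaling and 1 with scaling to Cdh1 (Akap5). Of all genes 806, 569 and 118 were called higher in the same order, against 818 otherwise. Members called numbered 3 without Atg5-/- AT2-PBS replicate 3, the sample with the lowest value of its group for 8 of the 10 members, and 5 without Atg5-/- AT2-BLM replicate 3. Calls of all genes, higher and lower, ran from 1579 to 2326 with 1 sample left out, against 1962 otherwise.

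**Figure D2:**
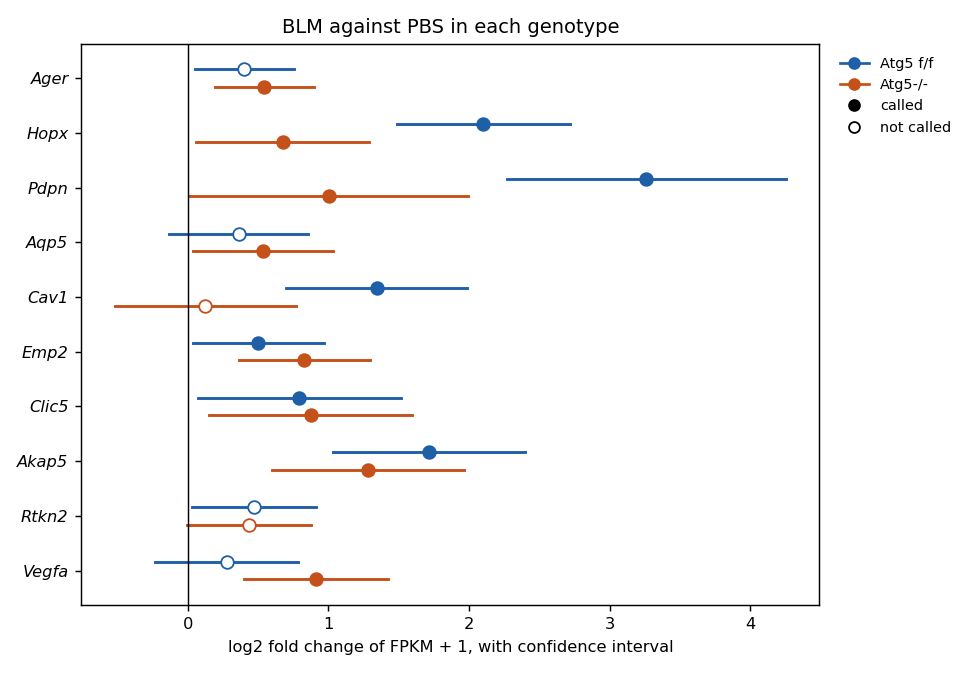
Log2 fold change of BLM against PBS (FPKM + 1) with its 95% interval for each member, in Atg5 f/f cells (blue) and Atg5-/- cells (orange), filled where called. Hopx, Pdpn and Cav1 lie further right in Atg5 f/f cells (2.10, 3.26 and 1.34) than in Atg5-/- cells (0.68, 1.00 and 0.12). The intervals of Hopx and Pdpn do not overlap between genotypes. Those of Cav1 overlap slightly (0.70 to 1.99 and -0.52 to 0.77), and those of the other members overlap, in part only for Vegfa (-0.23 to 0.79 and 0.40 to 1.42).

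Whether the BLM difference itself differed between genotypes was tested as an interaction, the difference in Atg5-/- cells minus that in Atg5 f/f cells. Hopx (-1.43, standard error 0.40, adjusted p = 0.0491 from limma), Pdpn (-2.26, standard error 0.64, adjusted p = 0.0529) and Cav1 (-1.22, standard error 0.42, adjusted p = 0.107) were called, in each case with the smaller BLM difference in Atg5-/- cells. So 3 of 10 members were called lower and 0 higher, against 15.2% and 5.02% of all genes, and 1 passed the adjusted p, against 7.89%. For the remaining members the interaction was between -0.43 (Akap5, 95% interval -1.40 to 0.53) and 0.64 (Vegfa, interval -0.084 to 1.36), with 0.14 for Ager (interval -0.35 to 0.64). These intervals are wide, so equal BLM differences in both genotypes are not shown. Hopx, Pdpn and Cav1 were called under each scaling, with each sample left out in turn and with the Y-linked covariate (-1.82, -2.36 and -1.78). Calls of all genes in this test ran from 1833 to 2507 with 1 sample left out, against 2156 with all samples. Without AT2-BLM replicate 3 there were 5 calls of members, Emp2 (0.60) and Vegfa (0.78) being called higher besides, and the values of Hopx, Pdpn and Cav1 were -1.15, -1.98 and -0.81. Vegfa was also called higher with quantile normalization, with median-ratio scaling and without Atg5-/- AT2-PBS replicate 2. The PBS levels entered this difference too: Hopx and Pdpn were called higher in Atg5-/- AT2-PBS than in AT2-PBS. Markers of other cell types moved in the same direction in this test. Those called lower were 5 of 5 fibroblast markers tested, led by Dcn (-4.28) and Col1a1 (-3.41), and 9 of 9 leukocyte markers, led by Laptm5 (-4.07) and Marco (-3.85). Both lymphatic endothelial markers, Ccl21a (-2.04) and Lyve1 (-1.26), and both mesothelial markers, Msln (-3.98) and Upk3b (-2.24), were called lower too, whereas of 4 endothelial markers 0 were called. Of 6 liver and islet genes 4 were called lower, led by Mup3 (-6.43). The part of these cells and of liver and islet RNA in the values of Hopx, Pdpn and Cav1 was not tested.

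Atg5 loss with PBS compares the genotypes without injury. Pdpn was higher in Atg5-/- AT2-PBS by 1.58 (standard error 0.46, adjusted p = 0.0427 from limma) and Hopx by 0.63 (standard error 0.28, adjusted p = 0.210 from limma). Emp2 was lower, by a log2 value of -0.71 (standard error 0.21, adjusted p of 0.0514 from limma), and Aqp5 likewise at -0.59 (standard error 0.23, adjusted p = 0.141 from limma). Of the 10 members 2 were called higher and 2 lower, against 14.1% and 5.16% of all genes, and 1 passed the adjusted p, against 11.2%. The group ranges were apart for Pdpn and Cav1 (above) and Aqp5 and Emp2 (below), against 28.9% of all genes. The median was -0.23 over the members and 0.019 over all genes, and 0.12 and 0.34 with scaling to Cdh1. Under that scaling Pdpn, Hopx and Cav1 were called higher and no member lower. It also moved the calls of all genes to 2735 higher and 79 lower, from 1507 and 551 in the main fit. The members' median was -0.042 without Atg5-/- AT2-PBS replicate 3, -0.36 without its replicate 2, -0.14 without AT2-PBS replicate 1 and -0.15 without AT2-PBS replicate 2. Without AT2-PBS replicate 2 the calls were those of Pdpn and Emp2, 2 in all, and the call of Aqp5 was also lost with the Y-linked covariate. Calls of all genes ran from 1758 to 2258 with 1 sample left out, against 2058 with all samples. The Atg5-/- AT2-PBS libraries carried more RNA of fibroblasts and lymphatic endothelium, cell types in which Pdpn is also known, and the part of these in its level was not tested. All 5 fibroblast markers tested and both lymphatic endothelial markers tested, Ccl21a (3.12) and Lyve1 (1.61), were called higher in the same comparison.

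Atg5 loss with BLM compares the genotypes after injury. Hopx was lower in Atg5-/- AT2-BLM than in AT2-BLM by a log2 value of -0.79 (standard error 0.28) and Cav1 by -0.68 (standard error 0.30), at adjusted p of 0.618 and 0.621 from limma. These 2 calls of 10 members, with 0 called higher, stand against 3.12% of all genes called lower and 2.04% called higher, and 0 members passed the adjusted p, against 0.00937% of all genes. The 2 genes were also the ones whose ranges did not overlap, against 13.4% of all genes. Pdpn (-0.67, interval -1.67 to 0.32) and Akap5 (-0.64, interval -1.33 to 0.039) were not called, nor were Ager (-0.11, interval -0.46 to 0.24) and Vegfa (0.37, interval -0.14 to 0.87). The count depended on single libraries. Without replicate 3 of AT2-BLM 0 members were called, and without its replicate 2 there were 5 (Hopx, Cav1, Aqp5, Emp2 and Akap5, all lower). Leaving out Atg5-/- AT2-BLM replicate 1 or replicate 2 left 1 call, that of Hopx. Calls of all genes ran from 379 to 807 with 1 sample left out, against 551 with all samples. The Y-linked covariate gave 3 calls of members, Aqp5 besides Hopx and Cav1, and 831 of all genes. Median log2 fold changes were -0.40 over the members and -0.049 over all genes, and -0.13 and -0.0081 without AT2-BLM replicate 3. Both mesothelial markers tested, Msln (-2.50) and Upk3b (-1.35), and 1 of 5 fibroblast markers, Dcn (-1.10), were also called lower in this comparison. The part of these cells in the members' values was not tested.

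**Figure D3:**
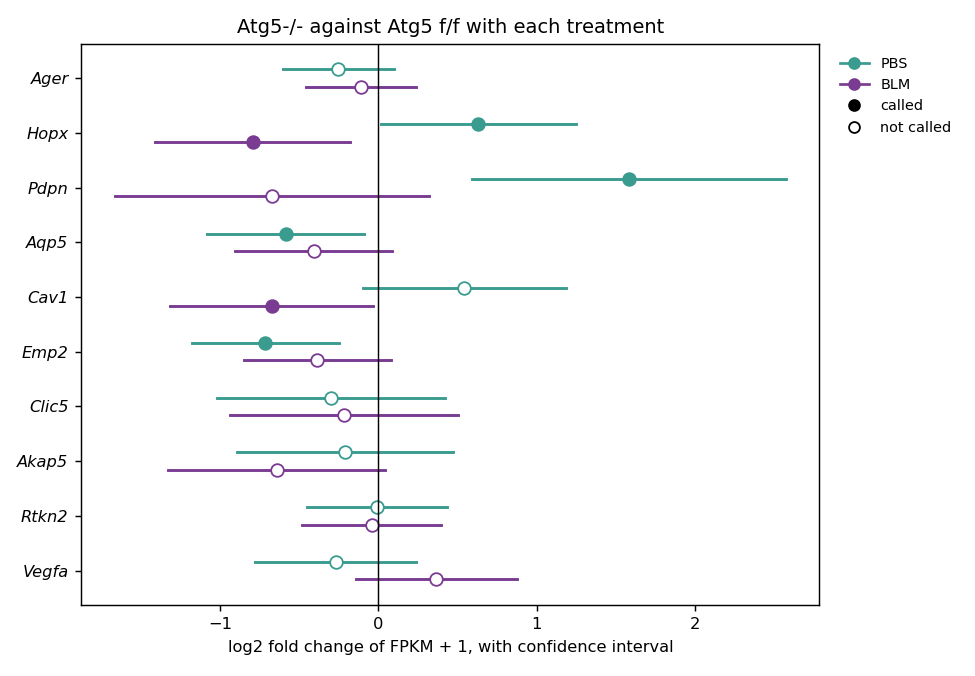
Log2 fold change of Atg5-/- against Atg5 f/f cells (FPKM + 1) with its 95% interval for each member, with PBS (green) and with BLM (purple), filled where called. With PBS, Pdpn and Hopx lie above 0 and Aqp5 and Emp2 below it, and with BLM Hopx (-0.79) and Cav1 (-0.68) are the filled points.

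Other genes known from AT1 cells gave a wider view than the 10 members. Of a list of 20, 18 were tested, and with BLM in Atg5 f/f cells 10 were called higher and 0 lower, led by Igfbp2 (2.19, adjusted p = 0.0288 from limma), an insulin-like growth factor binding protein of mature AT1 cells, and Krt7 (1.86), a keratin of simple epithelia. Of the same genes, in Atg5-/- cells 7 were called higher and 0 lower, led by Lmo7 (1.17) and Ndnf (1.16). Between genotypes with PBS 2 were called higher, Igfbp2 (1.82) and Cyp2b10 (1.43), and 2 lower, Flrt3 (-1.12) and Lmo7 (-0.97), against 14.1% and 5.16% of all genes. The Atg5-/- AT2-PBS libraries hold the leukocyte, fibroblast and club cell RNA described above, whose part in these calls was not tested. Between genotypes with BLM 0 were called higher and 6 lower, against 2.04% and 3.12% of all genes. Those lower were led by Krt7 (-0.94) and Pxdc1 (-0.89), with adjusted p of 0.62 from limma. The summed level of the list was 1542 to 2518 FPKM in AT2-BLM and 1160 to 1391 FPKM in Atg5-/- AT2-BLM, with no overlap, and 674 to 901 FPKM in AT2-PBS and 788 to 917 FPKM in Atg5-/- AT2-PBS. This sum mostly follows Icam1, Gprc5a, Krt7 and Cyp2b10 (AT2-BLM means of 490, 480, 396 and 265 FPKM). The other genes had AT2-BLM means of 43.8 FPKM or less. Between genotypes with BLM, Gprc5a and Krt7 were called lower and Icam1 and Cyp2b10 were not called.

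Of 6 caveola coat genes other than Cav1, 5 were called higher with BLM in Atg5 f/f cells, against 20.6% of all genes. The largest were Prkcdbp (1.83) and Sdpr (1.34), both cavin genes, and Cav2, which pairs with Cav1 and is also in the list of other AT1 genes, was at 0.70. Among Atg5-/- samples 2 of 6 were called higher, Ehd2 (0.70) and Cav2 (0.63), against 7.66% of all genes. The interaction was called for Prkcdbp (-1.86) and Sdpr (-1.56), with adjusted p of 0.19 and 0.11 from limma. Of all genes 15.2% were called lower in the interaction. It includes the Atg5-/- AT2-PBS libraries with leukocyte, fibroblast and club cell RNA, whose part in Prkcdbp and Sdpr was not tested. Genes of YAP, TAZ and TEAD signalling, which AT1 differentiation uses, were called higher with BLM for 3 of 7 tested in Atg5 f/f cells, among them the target Ctgf (2.40) and Ajuba (1.84), and for 2 of 7 in Atg5-/- cells, Ajuba (1.15) and Amotl2 (0.93). The shares of all genes were 20.6% and 7.66%. After BLM, 3 of 7 were called lower with Atg5 loss and 0 higher, against 3.12% and 2.04% of all genes. Cyr61 (-1.73) and Ctgf (-1.50) led them, with adjusted p of 0.62 each from limma. The list summed to 134, 117 and 345 FPKM in AT2-BLM replicates 1, 2 and 3 and to 62.4 to 100 FPKM in Atg5-/- AT2-BLM. Its count without AT2-BLM replicate 3 is not reported here.

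Ligands of Ager were called most often in the comparisons that hold Atg5-/- AT2-PBS. With BLM in Atg5 f/f cells 2 of 6 tested were called higher, S100a4 (2.08) and S100a11 (1.13). Under PBS, 3 of 6 were called higher with Atg5 loss, S100a9 (4.67), S100a8 (4.26) and S100a4 (3.81), and with BLM in Atg5-/- cells the same 3 were called lower. S100a8 and S100a9 are abundant in neutrophils, and 9 of 9 leukocyte markers tested were called in the same directions in these comparisons, led by Laptm5 (4.60) and Coro1a (4.29) in the former and Marco (-3.26) and Laptm5 (-2.84) in the latter. The part of leukocyte RNA in the ligands was not tested. Besides Vegfa, 2 of the 8 other genes of the Vegf family and its receptors found in the table were tested, and Nrp1, a co-receptor, was called lower with BLM in Atg5 f/f cells (-0.71) and with Atg5 loss and PBS (-0.64).

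AT2 and transitional genes give the other end of the AT2 to AT1 path. Of 10 AT2 markers tested, 3 were called lower with BLM in Atg5 f/f cells and 1 higher, with Sftpb (1.81) and Etv5 (-0.76) the largest, whereas in Atg5-/- cells 2 were called higher, Cxcl15 (0.60) and Lamp3 (0.57), and 0 lower. Under PBS, 5 were called lower with Atg5 loss and 1 higher. Sftpb varied widely in AT2-PBS, at 1777, 2590 and 11570 FPKM in rising order, and overlapped AT2-BLM (8984 to 16780 FPKM). These AT2-PBS values also enter its difference between the PBS groups and its interaction. Of 12 transitional alveolar cell genes, 10 were called higher with BLM in Atg5 f/f cells, against 20.6% of all genes. They were led by Cldn4 (4.51), a tight junction claudin, and Plaur (2.94), the urokinase receptor. Among Atg5-/- samples 3 were called higher and 1 lower, Plaur (-3.00) and Clu (1.17) being the largest, and the interaction was called lower for 5 of 12, Plaur (-5.94) and Cldn4 (-3.37) first. Plaur, which leukocytes also express, was at 52.6 to 59.8 FPKM in Atg5-/- AT2-PBS, the libraries with the leukocyte RNA, against 0.825 to 3.16 FPKM in AT2-PBS, and the 9 leukocyte markers tested were called lower in the interaction and with BLM in Atg5-/- cells. The part of leukocyte RNA in Plaur was not tested. After BLM, 9 of the 12 transitional genes were called lower with Atg5 loss, against 3.12% of all genes. Cldn4 (-2.79) and Plaur (-1.45) led them, at adjusted p of 0.51 and 0.62 from limma. The list summed to 3098, 2821 and 4240 FPKM in AT2-BLM replicates 1, 2 and 3 and to 1321 to 2035 FPKM in Atg5-/- AT2-BLM. Its count without AT2-BLM replicate 3 is not reported here. AT2-BLM samples had 68.7, 52.9 and 228 FPKM of Cldn4 and Atg5-/- AT2-BLM samples 6.43, 21.5 and 14.6 FPKM, with no overlap.

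**Figure D4:**
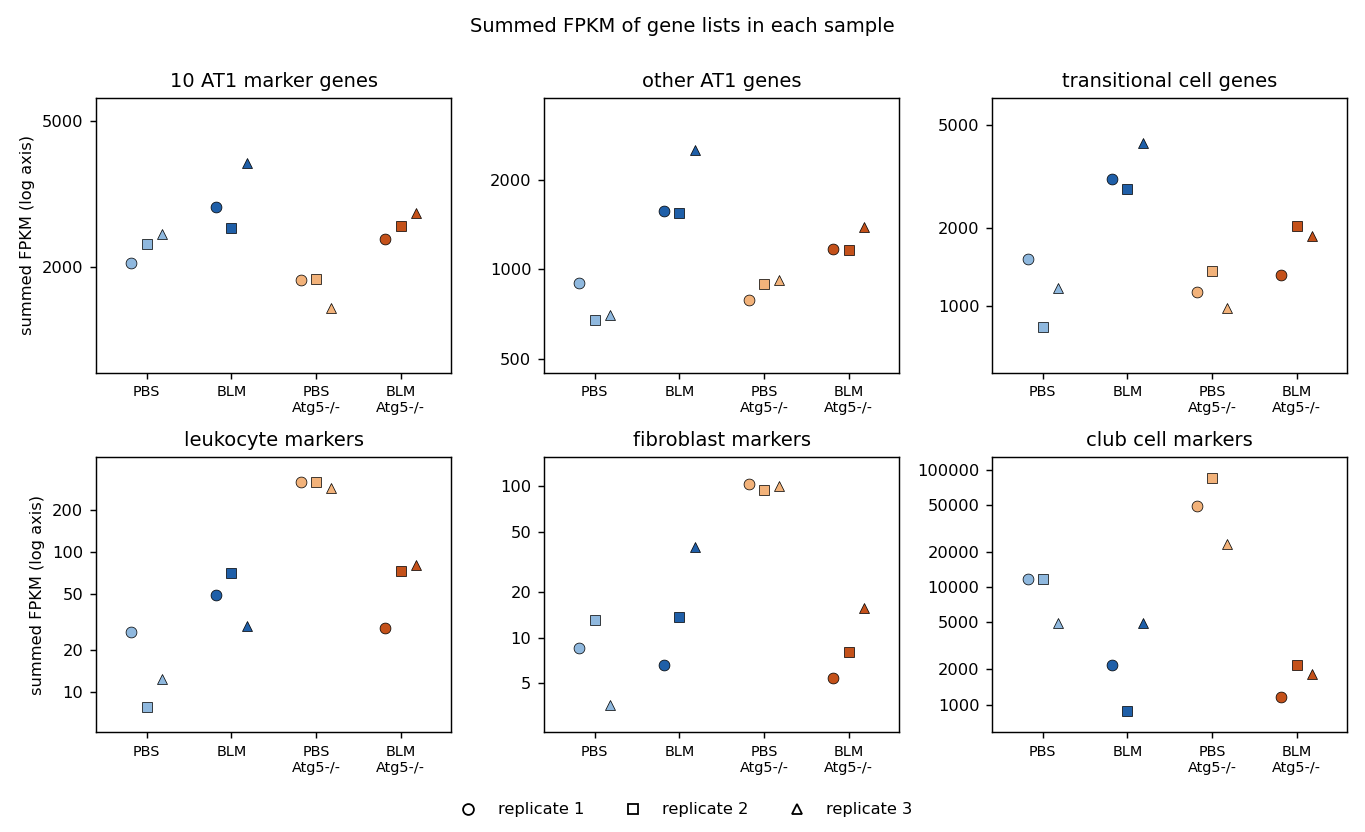
Summed FPKM (log axis) of the 10 AT1 marker genes and of 5 other lists in each sample of the 4 groups, with circles, squares and triangles for replicates 1, 2 and 3. The members run from 2052 to 2463 in AT2-PBS, 2562 to 3854 in AT2-BLM, 1555 to 1855 in Atg5-/- AT2-PBS and 2392 to 2816 in Atg5-/- AT2-BLM, and leukocyte, fibroblast and club cell markers are highest in the 3 Atg5-/- AT2-PBS samples.

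Summed over the members, Atg5-/- AT2-PBS had the lowest levels, at 1555 to 1855 FPKM, a sum that mostly follows Ager and Aqp5. Among all tested genes outside the members, those whose log2 values were most like those of Ager over the 12 samples included Crip2 (Pearson correlation 0.960, Spearman correlation 0.937), Clic3 (0.946 and 0.930), Mief2 (0.941 and 0.923) and Sharpin (0.927 and 0.902). They were picked for this likeness, share the libraries and groups with Ager, and are a description. Crip2 was at 412 to 547 FPKM in AT2-PBS, 540 to 740 FPKM in AT2-BLM, 355 to 402 FPKM in Atg5-/- AT2-PBS and 515 to 672 FPKM in Atg5-/- AT2-BLM. An exact permutation test of 1 gene in 3 samples against 3 cannot give a two-sided p below 0.1, so single genes were tested only in the fit over all genes.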

How the data were processed

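RNA of 12 samples of FACS-sorted mouse AT2 cells (4 groups of 3) was analysed. The authors prepared Illumina TruSeq libraries, aligned reads to mm9 and deposited FPKM per gene computed with Cufflinks 2.2.1. Their submitted processing notes also name Trimmomatic 0.36, HISAT2 2.2.1.0 and HTSeq 0.9.1, whereas the methods name STAR as the aligner and add a normalization with DESeq. Whether the deposited FPKM include that step, and whether strand was used in counting, is not given in the sources used here. The methods describe a stranded kit, and the labels a TruSeq kit without that word.

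Groups came from the sample titles. For 1 sample the number in the title differs from that in the description, and the title's was kept. The 10675 of 21878 genes that reached an FPKM of 1 in 3 or more samples were tested on log2(FPKM + 1) by limma 3.58.1 in R 4.3.3, with lmFit and trended eBayes, in a single fit to the 12 samples. A call required p under 0.05 before adjustment and a change of 1.4-fold or more, and Benjamini-Hochberg adjusted p-values cover all genes tested. This scale understates changes of low genes. The fit was tested on simulated data. Within groups, Pearson correlations of samples across genes were between 0.938 and 0.987. FPKM give no read counts, so depth is unknown and no counting interval is given.

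The 10 members and the other gene lists were chosen with earlier results of these data known. All members are named. For the other lists, counts called and the 2 called genes with the largest change in a comparison are given, plus the 5 genes most like Ager, 1 of which is not reported here, and Sftpc, Atg5, Cdh1, Epcam, Ptprc, Pecam1 and Col1a2 as checks. Beyond this rule, Ddx3y, Sftpa1, Prox1, Wt1, Cdh5, Sox17, Kdr, Egfl7, Cav2, Icam1, Gprc5a, Flrt3, Lmo7 and S100a4 were named after their values were seen. Alternatives were a pseudocount of 0.1, no filter, scaling to Cdh1 or by median ratios, quantile normalization, a fit without trend, a replicate block, fits restricted to the groups compared, a fold of at least 2, calls by adjusted p, each sample left out and, chosen after seeing the data, Y-linked expression (Ddx3y FPKM of at least 1) as a covariate. Gene positions are from the GENCODE annotation of mm9 and upstream windows from RefSeq (GRCm38.p6). Plots were made in Python 3.11.15 with matplotlib 3.10.9.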

Additional observations from a re-analysis of the deposited data

Results flagged for a closer look

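For 3 members the difference between BLM and PBS differed between genotypes in the test of that difference itself. For Hopx it was -1.43 on the log2 scale (2.10 in Atg5 f/f cells against 0.68 in Atg5-/- cells, adjusted p = 0.0491 from limma), with means of 3.10 and 17.1 FPKM in Atg5 f/f cells and 5.25 and 8.94 FPKM in Atg5-/- cells. For Pdpn it was -2.26 (3.26 against 1.00, adjusted p = 0.0529 from limma). For Cav1 it was -1.22 (1.34 against 0.12, adjusted p = 0.107 from limma). These 3 calls of 10 members, all lower, stand against 15.2% of all genes called lower and 5.02% called higher. Of the members 1 passed the adjusted p, against 7.89% of all genes. For all 3 members the AT2-BLM range lay above that of AT2-PBS. Atg5-/- AT2-BLM lay above Atg5-/- AT2-PBS without overlap for Hopx and Pdpn but not for Cav1. BLM and PBS ranges did not overlap for 40.2% of all genes in Atg5 f/f cells and 24.9% in Atg5-/- cells. The PBS arm of the Atg5-/- side is made of the 3 libraries with raised leukocyte, fibroblast and club cell RNA. In the same test 5 of 5 fibroblast, 9 of 9 leukocyte, 2 of 2 lymphatic endothelial and 2 of 2 mesothelial markers were called lower. So were 4 of 6 liver and islet genes. The part of all these in the 3 members was not tested.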

How the results depend on the processing

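The number of members called changed with the settings, of which the larger changes and some smaller ones are given here, and the cause was not tested. With BLM in Atg5-/- cells (8 members called) it was 4 with median-ratio scaling, 1 with scaling to Cdh1, 3 with Y-linked expression as a covariate, 3 with adjusted p and 2 with a fold of at least 2. For Atg5 loss under PBS (4 called) it was 1 with adjusted p and 1 with a fold of at least 2, and with scaling to Cdh1 Aqp5 and Emp2 lost their calls while Cav1 gained one. For Atg5 loss under BLM (2 called) it was 1 without the filter, 1 with quantile normalization and 0 with scaling to Cdh1, adjusted p or a fold of at least 2. The interaction (3 called) had 1 with adjusted p, and Vegfa was called higher besides with quantile normalization and with median-ratio scaling. With BLM in Atg5 f/f cells (6 called), Emp2 and Clic5 lost their calls with quantile normalization, median-ratio scaling and scaling to Cdh1. They also lost them in the fit of the compared groups, by adjusted p and with a fold of at least 2. In that comparison Aqp5 and Rtkn2 gained calls with the Y-linked covariate, and Rtkn2 with a pseudocount of 0.1. Leaving out 1 sample at a time, the counts ran from 4 to 9 with BLM in Atg5 f/f cells, 3 to 7 with BLM in Atg5-/- cells, 2 to 3 with Atg5 loss and PBS, 0 to 5 with Atg5 loss and BLM and 3 to 5 in the interaction. Calls of all genes then ran from 2640 to 3179, 1579 to 2326, 1758 to 2258, 379 to 807 and 1833 to 2507 in the same order.

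Log2 fold changes that changed sign belonged to members not called in that comparison. With scaling to Cdh1 these were Cav1 with BLM in Atg5-/- cells (-0.31), Ager (0.14), Clic5 (0.033), Akap5 (0.00239), Rtkn2 (0.21) and Vegfa (0.095) with Atg5 loss and PBS, Ager (0.062) and Rtkn2 (0.068) with Atg5 loss and BLM, and Ager (-0.0804), Aqp5 (-0.0466) and Clic5 (-0.10) in the interaction. With the Y-linked covariate they were Cav1 with BLM in Atg5-/- cells (-0.25), Rtkn2 with Atg5 loss and PBS (0.059), and Ager (-0.0512), Aqp5 (-0.28) and Clic5 (-0.12) in the interaction. Rtkn2 was also at 0.031 with Atg5 loss and PBS under a pseudocount of 0.1, at 0.00015 with Atg5 loss and BLM and 0.020 in the interaction with median-ratio scaling, and at 0.37 in the interaction with quantile normalization. Leaving out samples gave ranges across 0 for Akap5 (-0.51 to 0.065) and Rtkn2 (-0.19 to 0.084) with Atg5 loss and PBS, for Clic5 (-0.53 to 0.15) and Rtkn2 (-0.17 to 0.11) with Atg5 loss and BLM, and for Clic5 (-0.23 to 0.45) and Rtkn2 (-0.16 to 0.15) in the interaction.

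Same-numbered samples of the compared groups did not deviate together (correlations of their deviations between -0.24 and 0.23), so the numbers were not taken as pairs. With the replicate block the members called numbered 6, 7, 3, 2 and 3 in the 5 comparisons in the order of the report's design (BLM in Atg5 f/f cells, BLM in Atg5-/- cells, Atg5 loss with PBS, with BLM, and the interaction), Pdpn with BLM in Atg5-/- cells and Hopx with Atg5 loss and PBS losing their calls. Over all genes the calls split into 2202 higher and 829 lower with BLM in Atg5 f/f cells, and 1235 and 1398 with quantile normalization, 1405 and 1355 with median-ratio scaling and 989 and 1295 with scaling to Cdh1. With BLM in Atg5-/- cells the split was 818 and 1144, against 1148 and 1069, 569 and 1287, and 118 and 2450 in the same order. For Atg5 loss with PBS 1507 and 551 became 1177 and 1587 with quantile normalization and 2735 and 79 with scaling to Cdh1, and with Atg5 loss and BLM 218 and 333 became 281 and 244 with median-ratio scaling and 358 and 92 with scaling to Cdh1. The interaction split was 536 and 1620, against 1362 and 1123, 782 and 1453, and 213 and 1793. Adjusted p and a fold of at least 2 left 1856 and 982 calls with BLM in Atg5 f/f cells (3031 otherwise), 923 and 914 with BLM in Atg5-/- cells (1962), 1195 and 1113 with Atg5 loss and PBS (2058), 1 and 101 with Atg5 loss and BLM (551) and 842 and 1328 in the interaction (2156). Atg5 loss with BLM gave 831 calls with the Y-linked covariate. The fit of only the compared groups was not run for the interaction, which uses all 4.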

Other observations

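Further lists describe the samples in which the members were measured. Of 6 liver and islet genes, 4 were called higher with Atg5 loss and PBS, led by Mup3 and Fabp1 (6.26 each), and 4 with BLM in Atg5 f/f cells, led by Mup3 (3.54) and Apoa1 (3.48), while 3 were called lower with BLM in Atg5-/- cells, led by Ins1 (-6.27) and Mup3 (-2.89). They summed to 4.90 and 3.34 FPKM in AT2-PBS replicates 2 and 3 and to 3001 FPKM in replicate 1. In Atg5-/- AT2-PBS the sum was 1812 to 5030 FPKM. Of 4 club cell markers, 4 were called higher with Atg5 loss and PBS, led by Scgb3a1 (5.19) and Scgb3a2 (2.90), and 4 lower with BLM in Atg5-/- cells, and 3 were called lower with BLM in Atg5 f/f cells, led by Scgb1a1 (-2.08) and Cyp2f2 (-1.82). Of 5 fibroblast markers tested, 5 were called lower with BLM in Atg5-/- cells, led by Dcn (-3.93) and Col1a2 (-2.56), and 0 in either direction with BLM in Atg5 f/f cells. Of 2 ciliated cell markers tested, 1 was called in each direction with BLM in both genotypes, and of 4 basal cell markers 1, Krt15, was tested and was called lower with BLM in Atg5-/- cells (-1.75) and in the interaction (-2.26). The interaction was also called lower for 3 of 4 club cell markers, led by Scgb3a1 (-4.60) and Scgb3a2 (-3.27), and for 4 of 6 liver and islet genes, led by Mup3 (-6.43) and Apoa1 (-6.14). With BLM in Atg5-/- cells both lymphatic endothelial markers, Ccl21a (-2.09) and Lyve1 (-0.87), and 1 of 2 mesothelial markers, Upk3b (-1.81), were called lower, and 1 of 4 endothelial markers, Egfl7 (0.70), higher. The endothelial marker Ramp2 (1.85) was called higher with Atg5 loss and PBS, and Tppp3 of ciliated cells (0.63) and Itgax of leukocytes (0.73) with Atg5 loss and BLM.

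In the other lists near the AT1 program, the remaining calls were these. The interaction was called lower for 2 of 18 other AT1 genes, Igfbp2 (-2.50) and Cyp2b10 (-1.83), for 1 of 7 YAP and TAZ genes, Ctgf (-2.80), and for 3 of 6 Ager ligands, S100a9 (-4.05) and S100a4 (-4.03) first. It was called higher for Nrp1 (0.88) and for 5 of 10 AT2 markers, with 1 lower, Sftpb (-1.96) and Abca3 (0.98) being the largest. Between the PBS groups, Sdpr (1.03) was the 1 caveola coat gene called higher, Ctgf (1.30) was called higher and Amotl2 (-0.51) lower, Sftpb (1.57) and Lamp3 (-0.66) were the largest among AT2 markers, and of 12 transitional genes 3 were called higher and 2 lower, led by Plaur (4.48) and Areg (-1.52). The part of the leukocyte, fibroblast and club cell RNA of Atg5-/- AT2-PBS in these calls and in those of the interaction was not tested. Between the BLM groups, Cav2 (-0.64) was the 1 caveola coat gene called lower, and 0 of 10 AT2 markers and 0 of 6 Ager ligands were called. With BLM in Atg5 f/f cells 5 of 9 leukocyte markers were called higher, led by Cd68 (1.64) and Coro1a (1.46).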
